A study of Homo sapiens with 5 samples.

Results

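The transcripts described here are those whose ribosome footprints were clearly lower in the QTRT1 knockout library than in each of 4 other knockout libraries. They were chosen by their footprint levels in these same libraries, so the fall itself is a description, and no test on these libraries can support it. A row of the deposited tables is a transcript, and its level is given in CPM, the count scaled to a library sum of 1000000. A row was listed where the lowest of the 4 other libraries reached 3 CPM and the QTRT1 library stood at no more than 0.4 times that lowest value. The rule leaves out 2 identifiers, at rows 74860 and 162614, and a block of 5373 consecutive rows. It was met by 6 of 182398 rows. In all 4 other libraries 30643 rows reached 3 CPM, and 29772 of them were not among the rows left out. The 6 lie in 3 groups of neighbouring rows. Of the 6, 3 lie within 20 rows of an identifier that the rule leaves out, and 1 of these has the same length and the same 5 counts as that neighbour. The list therefore holds 1 group of transcripts, rows 60430 to 60432, that does not adjoin a row already set aside.

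Queuosine is a modified guanosine in the anticodon of the tRNAs for asparagine, aspartate, histidine and tyrosine. The enzyme that exchanges guanine for this base in those tRNAs needs QTRT1 for its catalysis. QTGAL then adds galactose to it in the tyrosine tRNA, and QTMAN adds mannose in the aspartate tRNA. Loss of QTRT1 thus removes the base with its sugars, while loss of QTGAL or QTMAN leaves the base and removes a single sugar. Ribosome profiling sequences the short pieces of mRNA that ribosomes shield from nuclease, and the count of such footprints on a coding sequence reflects how many ribosomes were on it.

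The cells were HEK293T, a line derived from human embryonic kidney, labelled epithelial. The groups were QTRT1 KO with 1 library, QTGAL KO with 2 libraries and QTMAN KO with 2 libraries, and no treatment or time is labelled. Every value therefore compares knockouts with each other, as libraries of the parent line were not analysed here. Summed counts were 13918194 in the QTRT1 library and 12002044 to 25291912 in the other 4. The labels do not say whether a knockout is a single clone or whether libraries of a genotype came from separate cultures, so a spread between libraries may be technical. Footprints alone do not tell less mRNA from fewer ribosomes per mRNA, nor fewer cells with a transcript from less of it per cell. The tables pair no identifier with a gene, and none of the listed identifiers is in the reference table used here. Listed rows are therefore given by row number and coding length in codons, with no gene, sequence or coordinate. The footprints of the QTGAL and QTMAN genes and the markers of the cell line were not checked. Row 162614, which the rule leaves out, was named beforehand as a transcript of the knocked-out QTRT1 gene, and that name was not checked. Rows 162617 and 162619 lie close after it, and whether any listed row belongs to that gene was not tested.

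The group at rows 60430 to 60432 holds 3 long coding sequences of 1369, 1429 and 1446 codons. The row with the most footprints was uc003php.4, at row 60432. Its level in the QTRT1 library was 2.66 CPM, from 37 counts. It stood at 7.12 and 7.58 CPM in QTGAL KO replicates 1 and 2, from 167 and 91 counts. In QTMAN KO replicates 1 and 2 it stood at 9.60 and 10.003 CPM, from 181 and 253 counts. The libraries thus lay in the order QTRT1, QTGAL and QTMAN, with no overlap between genotypes. Both QTGAL libraries lay below both QTMAN libraries in 14.7% of the rows at 3 CPM or more. The genotype means were 7.35 ± 0.330 CPM for QTGAL KO and 9.80 ± 0.288 CPM for QTMAN KO (SD, n = 2 each), and the QTRT1 value was 0.362 and 0.271 of these. Against the mean of the 4 other libraries, 8.57 ± 1.44 CPM (SD, n = 4), the QTRT1 value was lower by 3.23-fold. The 95% interval of the QTRT1 value (Clopper-Pearson, covering counting error only and not the choice of the row) ran from 1.87 to 3.66 CPM.

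The rows of this group differed little from each other, because their counts are nearly the same. All 3 held 37 counts in the QTRT1 library. In the other libraries row 60430 held 158, 83, 173 and 240 counts in the same order of libraries, and row 60431 held 165, 89, 179 and 251. The 77 codons by which the longest row exceeds the shortest went with 9, 8, 8 and 13 more counts in the QTGAL and QTMAN libraries and with 0 more in the QTRT1 library. Such counts are what transcripts sharing most of their footprints would give, so the 3 rows are read as 1 observation. Per 1000 codons, row 60432 held 1.84 CPM in QTRT1 KO and between 4.92 and 6.92 CPM in the others. This was a thinly covered coding sequence: only 4.98% of the rows at 3 CPM or more had a lower mean density over the 4 other libraries, whose median was 37.4 CPM per 1000 codons.

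The second group is a single row, 74861, with the identifier uc064mrw.1 and 269 codons. It had the lowest ratio of the list. Its level in the QTRT1 library was 0.503 CPM, from 7 counts, and it lay at 6.94 and 4.08 CPM in QTGAL KO replicates 1 and 2, and at 9.76 and 6.84 CPM in QTMAN KO replicates 1 and 2. The other libraries held 163, 49, 184 and 173 counts. The QTRT1 library lay far below the other 4, while the QTGAL and QTMAN values overlapped. The genotype means were 5.51 ± 2.02 CPM for QTGAL KO and 8.30 ± 2.06 CPM for QTMAN KO (SD, n = 2 each). The QTRT1 value was 0.123 of the lowest other library and 13.7-fold below the mean of the 4, with an interval of 0.202 to 1.04 CPM (Clopper-Pearson, 95%). Row 74860, which the rule leaves out, held the same counts in all 5 libraries at the same length, so row 74861 adds no measurement of its own. The 4 other libraries also varied more here than in most rows: the highest was 2.39 times the lowest, against a median of 1.27 over the rows at 3 CPM or more, and 99.7% of those rows had a smaller spread.

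The third group holds row 162617, of 226 codons, and row 162619, of 180 codons. Row 162617 stood at 0.790 CPM in the QTRT1 library, from 11 counts, at 6.73 and 4.67 CPM in the QTGAL KO replicates, and at 6.47 and 5.85 CPM in the QTMAN KO replicates. Row 162619 stood at 0.575 CPM, from 8 counts, against 5.79 and 3.25 CPM in QTGAL KO and 4.93 and 4.98 CPM in QTMAN KO. In both rows the QTRT1 library was lowest by a wide margin and QTGAL KO replicate 2 was the next lowest, while both QTMAN values lay between the QTGAL values. The genotype means for row 162617 were 5.70 ± 1.46 CPM in QTGAL KO and 6.16 ± 0.436 CPM in QTMAN KO (SD, n = 2 each). The QTRT1 values of rows 162617 and 162619 were 0.169 and 0.177 of the lowest other library, and 7.50-fold and 8.24-fold below the mean of the 4. Their intervals ran from 0.395 to 1.41 CPM and from 0.248 to 1.13 CPM (Clopper-Pearson, 95%).

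**Figure D1:**
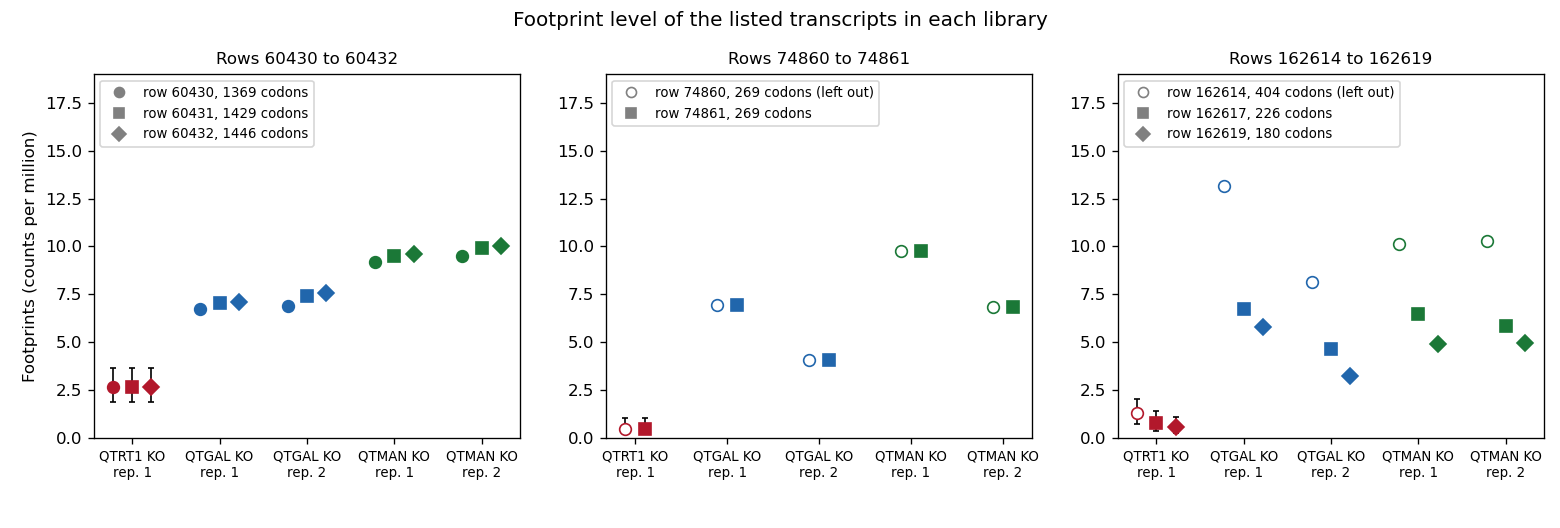
Footprint level in CPM (y axis) of the 6 listed rows, filled, and of the 2 identifiers left out, open, in each of the 5 libraries (x axis), with 95% Clopper-Pearson intervals for counting error on the QTRT1 KO values. The QTRT1 KO library is the lowest in every row, at 0.503 to 2.66 CPM among the listed rows. In rows 60430 to 60432 both QTGAL KO values lie below both QTMAN KO values, as in 14.7% of the rows at 3 CPM or more.

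The rows around the third group lie beside a longer transcript that the rule leaves out and that was named beforehand as QTRT1. From row 162614, of 404 codons, to row 162622, 6 rows held footprints, and their ratio of the QTRT1 library to the lowest other library lay between 0.0958 and 0.228. Row 162614 itself held 18 counts in the QTRT1 library against 309, 98, 191 and 260 counts in the others. The shares of its count that the shorter rows held were close between libraries for some rows and not for others. Row 162619 held 44.4% of the count of row 162614 in the QTRT1 library, and between 39.8% and 48.7% over all 5 libraries, at 44.6% of its length. For row 162617 the share was 61.1% in the QTRT1 library and 51.1% to 63.9% over the 5 libraries, at 55.9% of the length. Row 162618 ran from 34.7% to 51.8% over the 5 libraries, and row 162620 from 11.5% to 17.3%. Row 162622 held 16.7% in the QTRT1 library, from 3 counts, below the 24.6% to 35.9% of the others. The QTRT1 shares rest on 18 counts and are imprecise. The files do not say that these rows share an mRNA, and the shares are given without a test. Density was alike for the listed rows only: rows 162617 and 162619 had 26.2 and 26.3 CPM per 1000 codons over the 4 other libraries, against 25.8 for row 162614. Rows 162618 and 162622 were lower, at 21.9 and 22.8. Row 162620, with 1.17 to 2.05 CPM in these libraries over 123 codons, was lower still. Row 74861, at 25.7 CPM per 1000 codons, had a density like that of row 162614.

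The rows beside each group are given next, without the 2 identifiers that the rule leaves out. Within 50 rows of rows 60430 to 60432, 22 unlisted rows reached 3 CPM in the 4 other libraries, and their ratios lay between 0.804 and 1.03. The nearest of these on either side were row 60424, at 0.989, and row 60452, at 0.804. Row 60427, of 496 codons and below the floor in both QTMAN KO libraries, ran the other way. It had 4.10 CPM in QTRT1 KO and 2.14 to 3.42 CPM in the others. Next to row 74861 lies row 74860, which is left out and has the same ratio of 0.123. Apart from it there were 17 such rows around row 74861, all before it, with ratios of 0.747 to 1.36 and the nearest at row 74840. Row 162614, which is left out and lies 3 rows before row 162617, had a ratio of 0.158. Apart from it there were 36 such rows around rows 162617 and 162619, with ratios of 0.782 to 1.33, and the nearest were row 162610, at 1.03, and row 162625, at 0.983.

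The level of the QTRT1 library over wider stretches of the file is given as background. Within 500 rows, the median log2 difference of the QTRT1 library from the mean of the other 4 (pseudocount of 0.5 CPM) was -0.18 around the first group, over 151 rows at the floor. Row 60432 stood at -1.51 on the same scale. Around row 74861 the median was -0.05 and the row stood at -2.83. Around row 162617 the median was -0.29 and the row stood at -2.31. The rule sets these low values of the listed rows.

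**Figure D2:**
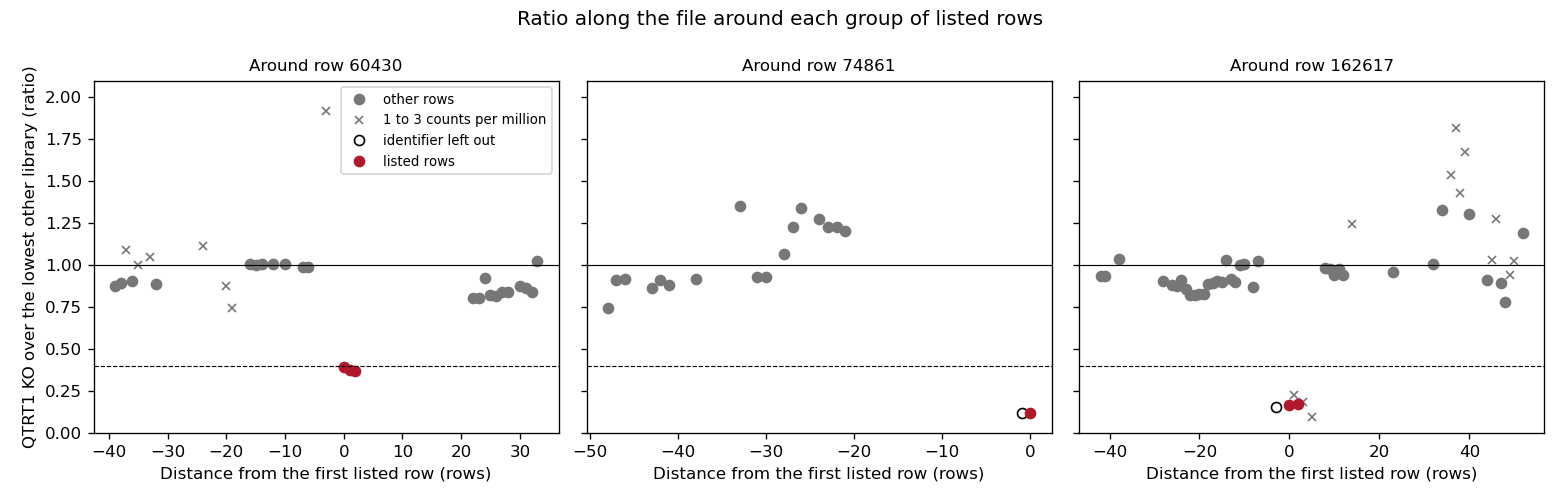
Ratio of the QTRT1 KO library to the lowest of the 4 other libraries (y axis) against the distance in rows from the first listed row (x axis), for rows with at least 1 CPM in the 4 others; crosses are rows below 3 CPM. Listed rows, in red, and the identifiers left out, open circles, lie at or below 0.395, as the rule requires of the listed rows, while all other rows at 3 CPM or more in view lie at 0.747 or above.

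Set against all rows, the list is the tail of a narrow distribution. Among the 30643 rows at 3 CPM or more the median ratio of the QTRT1 library to the lowest of the other 4 was 1.13. Taking the lowest of 4 values as the reference raises this ratio. Whether anything else raised it was not tested. The 1st percentile of the ratio was 0.679. The mean level of the listed rows over the 4 other libraries ran from 4.74 to 8.57 CPM, and 60.1% of the rows at the floor had a higher mean than any of them. At these levels the QTRT1 library allows few counts, as 3 CPM corresponds to 41.8 counts there. The listed lengths of 180 to 1446 codons straddle the median of 324 codons over the rows at the floor.

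**Figure D3:**
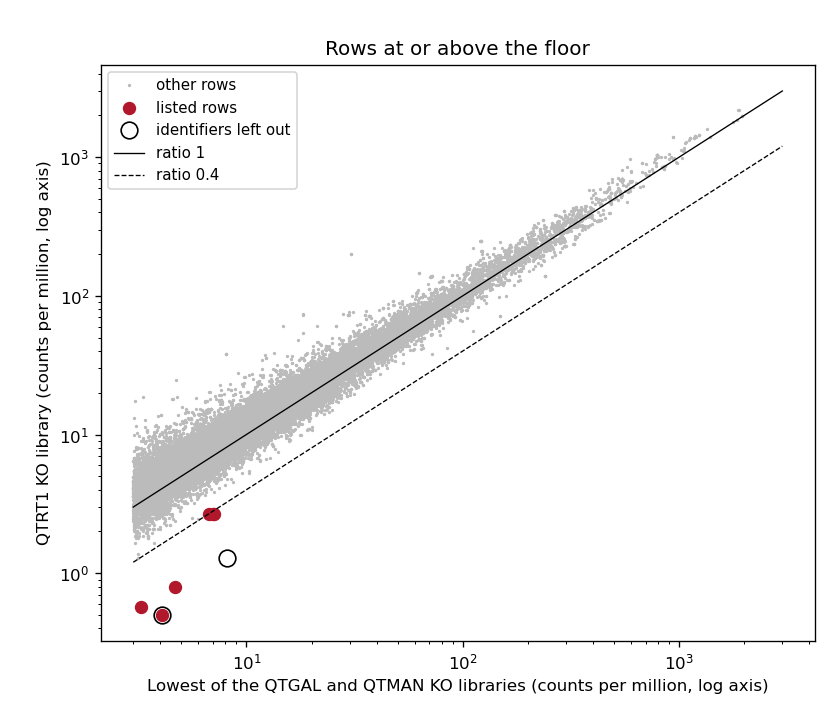
QTRT1 KO library (y axis, CPM, log scale) against the lowest of the QTGAL and QTMAN KO libraries (x axis, CPM, log scale) for the 30643 rows at 3 CPM or more. The 6 listed rows, in red, lie on or under the dashed line of ratio 0.4, and the circled point on a red one is row 74860, whose counts are those of row 74861.

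The rows nearest to the limits show where the list ends. Just inside the ratio of 0.4 were rows 60430, 60431 and 60432, at 0.395, 0.378 and 0.374, so the first group lies close to the limit. Just outside were row 77955, of 184 codons, at 0.408, row 162411, of 71 codons, at 0.441, and row 89034, of 213 codons, at 0.447. Row 77955 had 2.44 CPM in QTRT1 KO, 9.76 and 9.50 CPM in the QTGAL KO replicates and 5.99 and 9.41 CPM in the QTMAN KO replicates, so QTMAN KO replicate 1 alone kept it off the list. Just inside the floor of 3 CPM were rows 162619, 74861 and 162617, whose lowest other library was at 3.25, 4.08 and 4.67 CPM. Just outside were rows 162618 and 162622, at 2.83 and 2.25 CPM with ratios of 0.228 and 0.0958, and row 77612, of 889 codons, at 1.92 CPM with a ratio of 0.337. Rows 162618 and 162622 belong to the stretch around the third group.

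A ratio of at most 0.5 would list 13 rows in 7 groups. Among the added rows, those at 88515 to 88520 had many more footprints than any listed row. Row 88517, of 1085 codons, had 72.1 CPM in QTRT1 KO, from 1003 counts. The same row had 152 and 148 CPM in the QTGAL KO replicates and 260 and 167 CPM in the QTMAN KO replicates, a ratio of 0.487 to the lowest. Row 88518 held the same counts. This row lay below every other library by less than the listed rows did, but with far smaller counting error.

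The QTGAL and QTMAN knockouts were then compared within the list. The rule does not set these genotypes against each other, but it uses the lowest of their 4 libraries. It thus leaves out rows where either genotype is low, so the values compared are not free of the rule. The test was edgeR's quasi-likelihood test over all 60966 rows that passed its filter on low counts, with 1 mean per genotype, and all 6 listed rows passed. None of the 6 was called at an adjusted p of 0.05, where the same test called 0% of all rows. At an unadjusted p under 0.05 there were 4 of the 6, in 2 of the 3 groups, against 6.48% of all rows (3953). Fewer of the 6 reached this in every fit with a QTGAL or QTMAN library left out. Such fits hold a single library of that genotype. DESeq2 gave no adjusted p for any of the 6, and called 12 of the 4231 rows to which it gave one. It had 0 of the 6 at an unadjusted p under 0.05, against 1.71% of all rows (1042). The median absolute log2 fold change of the 6 rows was 0.45, against 0.17 over all rows tested. As the rows of a group may share footprints, these 6 values are not taken as independent.

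The largest estimates of a lower QTGAL level were in the first group and in row 74861, and none of these rows was called. For row 60432 the log2 fold change of QTGAL against QTMAN KO was -0.45 ± 0.17 (SE, n = 2 each, edgeR adjusted p = 0.746). Rows 60430 and 60431 gave -0.48 and -0.46. In these 3 rows both QTGAL libraries lay below both QTMAN libraries, an order that 14.7% of the rows at 3 CPM or more had. The share with the reverse order was not computed. The value for row 74861 was -0.55 ± 0.24 (SE, edgeR adjusted p = 0.757), and its libraries overlapped. It depended on single libraries, at -1.01 without QTGAL KO replicate 1, -0.29 without QTGAL KO replicate 2, -0.32 without QTMAN KO replicate 1 and -0.77 without QTMAN KO replicate 2. Rows 162617 and 162619 gave -0.10 ± 0.21 and -0.11 ± 0.25 (SE, edgeR adjusted p = 0.976 and 0.971), and with QTGAL KO replicate 2 left out they gave 0.09 and 0.18. No row of the list was thus shown to differ between QTGAL and QTMAN KO, and the standard errors leave room for differences of the sizes given.

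**Figure D4:**
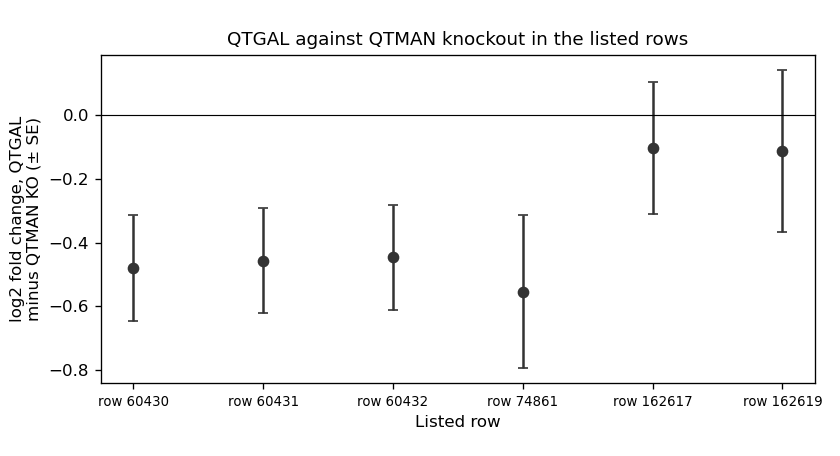
log2 fold change of QTGAL KO against QTMAN KO (y axis, edgeR, bars are ± SE) for the 6 listed rows (x axis). Rows 60430 to 60432, read as 1 observation, and row 74861 lie between -0.45 and -0.55. Rows 162617 and 162619 lie at -0.10 and -0.11, with bars that cross 0. The bars are not a test. None of the 6 rows was called at an adjusted p of 0.05 (edgeR), where the same test called 0% of all rows.

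The same fit gives the QTRT1 contrast, but the rows were selected on it, and the QTRT1 knockout has 1 library. Its values are therefore a description only. The log2 fold change of the QTRT1 library against the mean of QTGAL and QTMAN KO was -1.69 for row 60432, -3.77 for row 74861, -2.93 for row 162617 and -3.07 for row 162619. The fit called 0.0394% of all rows tested lower in the QTRT1 library. That the 6 listed rows are among them reuses the values that chose them and is no evidence for the fall.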

How the data were processed

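Ribosome footprints were sequenced in 5 libraries of knockout HEK293T cells. The authors deposited 1 table per library with an identifier, a whole-number footprint count, not normalized, and a length. The length, of unit other than a count in the deposited files, was read as codons. The submitters' processing notes name bcl2fastq 2.19, CASAVA, STAR 2.7.0a and hg38. An annotation or counting program was not given in the sources used here. No molecular identifiers are mentioned in the labels, so intervals cover counting error of reads only.

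CPM was computed from the counts and column sums in Python 3.11.15. Listed rows within 20 rows of each other formed a group. The test was edgeR 4.0.16 in R 4.3.3 (filterByExpr, TMM factors of 0.967 to 1.02, quasi-likelihood test, all 5 libraries, 2 residual degrees of freedom, Benjamini-Hochberg over 60966 rows), checked on simulated data, with DESeq2 1.42.0 as an alternative. The SE is the absolute log2 fold change over the square root of F. Other floors, ratios, scalings, filters, a replicate block and leaving out libraries were tried. Rows were described by rank of ratio, level and closeness to the limits. With 6 rows, every listed row is accounted for, and identifiers are printed for 2. The members and lists were chosen with earlier results of these data known.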

Additional observations from a re-analysis of the deposited data

How the results depend on the processing

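The 6 rows were all listed under either other scaling (TMM or DESeq2 size factors), under a floor of 2 CPM (8 rows) and with each other library left out (6 to 12 rows, in 3 to 4 groups, the most without QTMAN KO replicate 1 and 10 without QTGAL KO replicate 1). A floor of 5 CPM left 3 rows in 1 group, rows 60430 to 60432, and a ratio of at most 0.3 left the other 3 rows. A ratio of at most 0.5 gave 13 rows in 7 groups. Leaving out all rows within 20 of the 2 identifiers set aside, chosen after seeing the data, left 3 rows in 1 group. How many listed rows were called lower in the QTRT1 library changed with the setting, as did such calls over all rows. Both were fewest when the fit was filtered at 5 CPM. DESeq2 gave an adjusted p in this contrast for only 2 listed rows. The QTRT1 group held 1 library in every fit and the rule used this contrast, so nothing is read from these calls. With all 5 libraries, no listed row was called between QTGAL and QTMAN KO under any setting (1 row was not tested with at least 5 CPM in 2 libraries, and DESeq2 gave no adjusted p for the 6). Few rows were called in these fits, from 0 to 282 of all rows, the most being 282 of 79348 with no filter. The 0 of 6 therefore tells nothing about the listed rows. Over all settings, also with a library left out, the median absolute log2 fold change of the 6 ran from 0.39 to 0.46. Without QTGAL KO replicate 2, rows 162617 and 162619 changed sign, to 0.0875 and 0.18, and over the fits with 1 library left out their lowest values, without QTGAL KO replicate 1, were -0.39 and -0.61. With the first number of the titles as a replicate block, the median was 0.44 and 0 of the 6 were called. The block raised the calls over all rows from 0 to 49. The deviations of same-numbered libraries correlated at r = 0.22 across 30643 rows, which with 2 pairs does not show that the numbers pair libraries. Depth limits the QTRT1 values, which rest on 7 to 37 counts.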
